A study of Gallus gallus with 2 samples.

Results

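Vitamin B12 uptake and use was described on 2 microarrays of chicken ileum through 10 genes, the receptor genes CUBN, AMN and LRP2, the lysosomal export genes LMBRD1 and ABCD4, the routing gene MMADHC, and MTR, MTRR, MUT and MMAA of the enzymes that need the vitamin. The members were all chicken probe sets that the array annotation assigns to exactly 1 gene and that carry 1 of these symbols, and 30 probe sets were found for all 10 genes, out of 37693 chicken probe sets, of which 27166 had exactly 1 gene. Male White Leghorn layer chicks ate a diet with 650 g/kg of paddy rice or a diet with 650 g/kg of corn (control) for 2 wk from 1 wk of age, with 9 birds per diet according to the labels. One array held RNA pooled from the ilea of 3 birds of the paddy rice group, and the other held RNA pooled likewise from 3 birds of the corn group. According to the study, these samples were selected for average ileal expression of the mucin gene MUC2, measured by real-time PCR. Both diets contained the same vitamin mixture, with vitamin B12 and folic acid, the same cobalt salt and the same added methionine according to the study's methods, while crude protein and metabolizable energy were not matched. The segments were taken whole after flushing, so the RNA comes from mucosa and muscle together, and fewer cells of a type and less RNA per cell cannot be told apart.

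In mammals, vitamin B12 of the diet reaches the ileum bound to intrinsic factor and is taken up by a receptor in which cubilin binds the complex and amnionless anchors cubilin in the apical membrane. Megalin, the product of LRP2, works with cubilin in the kidney and in the yolk sac, where both take up many other proteins. Inside the cell the vitamin leaves the lysosome through LMBRD1 and ABCD4 and is handed on by MMACHC and MMADHC either to methionine synthase in the cytosol or to methylmalonyl-CoA mutase in the mitochondrion. These roles are known from human patients and from mouse and dog models, and they are given as background.

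The values are MAS5 signals, which summarise the short probes of a probe set in arbitrary units on a linear scale. The trimmed mean was 500.1 on both arrays, and the signal ratio of the 3' end over the 5' end of ACTB was 1.52 on paddy rice and 1.51 on corn. A level of background was taken from 689 probe sets whose identifiers belong to neither chicken genes, controls nor reporters, and their 95th percentile was 45.1 on paddy rice and 44.1 on corn. All ratios are paddy rice over corn, and ratios above 1.5 or below 0.67 were counted, the thresholds of the study's methods. Counts over all probe sets had no filter on low signal, and the study reported far fewer probe sets past these thresholds. With 1 array per diet there was no test and no replicate error, and each ratio compares a pair of pools. As the only repeat measure, log2 ratios of probe sets of the same gene differed with an SD of 0.27 where the signal reached the median of 111 (4020 genes) and of 1.43 below it (2867 genes). Signals of different probe sets depend on their probes and were not compared between genes, so a rank only gives the place of a probe set on its array.

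Of the 10 genes, CUBN was above 1.5, AMN and MTRR were below 0.67, and the other 7 lay between when each gene was read with its brightest probe set. Over all 13050 singly named genes read in the same way, 8.28% were above 1.5 and 8.64% were below 0.67. The median log2 ratio was 0.13 over the 10 genes and -0.0029 over all genes. Of the 30 probe sets, 9 were above 1.5 and 6 were below 0.67, against 14.6% and 15.1% of all chicken probe sets. Only 14 of the 30 were above background on both arrays, and 3 of these were above 1.5 and 2 were below 0.67, where the shares over the 24415 chicken probe sets passing the same filter were 4.37% and 4.74%. Of the other 16, 6 were above background on 1 array and 10 on neither. At or above the median signal, 12 probe sets of 9 genes remained, of which 2 were above 1.5 and 2 below 0.67, where the shares over all chicken probe sets were 2.49% and 2.72%.

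**Figure D1:**
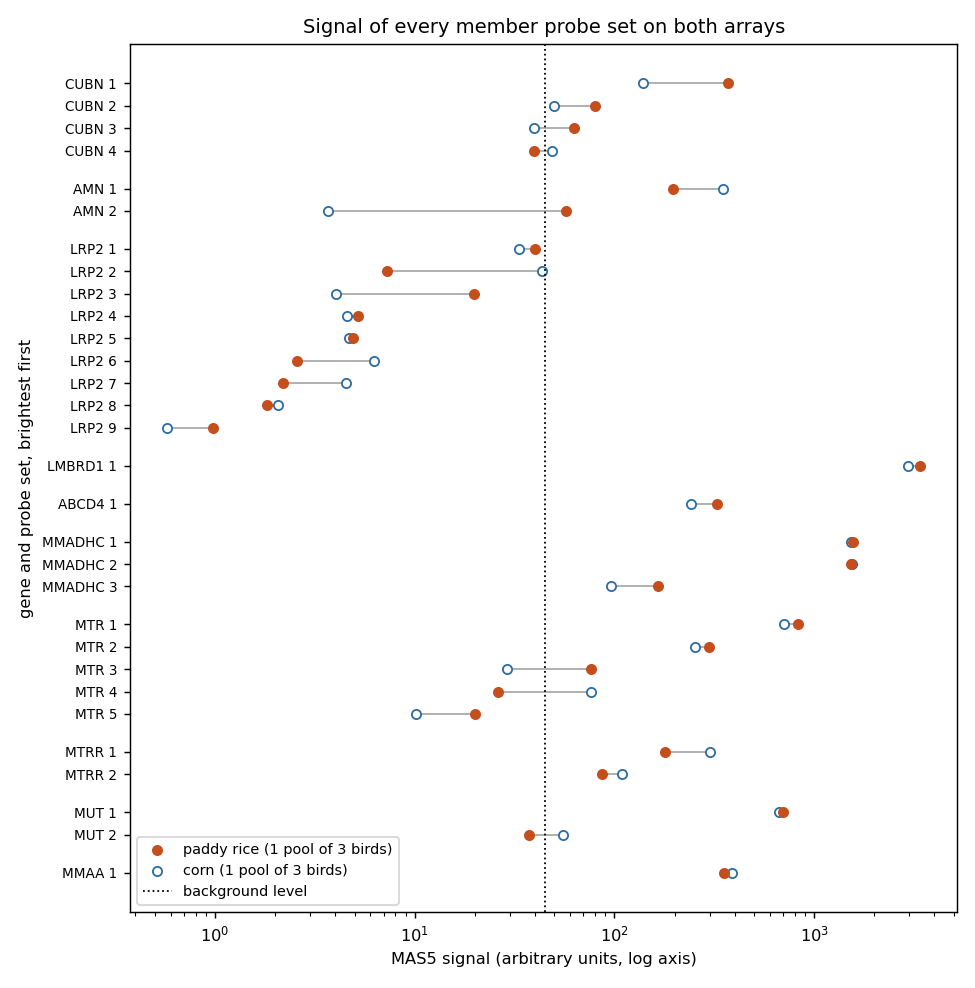
MAS5 signal (arbitrary units, log axis) of all 30 probe sets, by gene and from the brightest to the dimmest probe set within a gene. Filled points are the paddy rice pool, open points the corn pool, and the dotted line is the background level of the paddy rice array, 45.1. The brightest CUBN probe set lies to the right on paddy rice, the brightest AMN and MTRR probe sets lie to the left, and all 9 LRP2 probe sets lie left of the line on both arrays.

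CUBN, the receptor gene for the complex of intrinsic factor and vitamin B12, had a higher signal on paddy rice. Its brightest probe set, Gga.14579.1.S1_at, had a signal of 373 on paddy rice and 139 on corn, a ratio of 2.69. It ranked 11315 on the paddy rice array and 17542 on the corn array among the 37693 chicken probe sets, rank 1 being the brightest. Both signals were above background, and the log2 ratio was 1.43. The SD of the log2 ratios over the 4 probe sets of CUBN was 0.71. It mixes probe sets shared between transcripts or with a signal at background. It measures neither the error of a single probe set nor the spread between birds or pools. Among the 1000 chicken probe sets closest to it in mean signal, 4.0% were above 1.5 and 0.2% had a higher ratio. Of 15316 singly named probe sets that reached the median signal, 12 had a higher ratio. The study lists CUBN as upregulated on its microarray, at a somewhat smaller fold. That fold comes from the same arrays and is no second observation. The study also reported higher ileal CUBN on paddy rice by real-time PCR, in birds of the experiment that supplied the pools.

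The other CUBN probe sets were dimmer. Nominally 2 of the 3 were also above 1.5, but among these 3 only the brightest, the second of the 4, had both signals above background. The second probe set had signals of 80.0 on paddy rice and 49.7 on corn, a ratio of 1.61, with ranks 21485 and 25539. Of the probe sets of like signal 16.7% were above 1.5 and 13% had a higher ratio. The third had 62.4 on paddy rice and 39.4 on corn, with ranks 23519 and 27376. Since its corn signal was not above background, its nominal ratio of 1.58 falls to 1.41-fold, under the threshold, when corn is set to the background level. Near it 19.9% of the probe sets were above 1.5 and 17.7% had a higher ratio. The fourth ran the other way, with 39.5 on paddy rice and 48.5 on corn, a nominal ratio of 0.815 and ranks 27202 and 25759, and its paddy rice signal was not above background. CUBN was higher on paddy rice on both probe sets that were above background on both arrays. Of the 4 probe sets, the second and the fourth are marked as shared between transcripts. The median ratio over the 4 probe sets was 1.60.

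AMN, whose product anchors cubilin in the membrane, was read by 2 probe sets that pointed in opposite directions. The brightest, Gga.8126.1.S1_at, had a signal of 196 on paddy rice and 351 on corn, a ratio of 0.559, with ranks 15133 and 11698. Of the 1000 probe sets closest in signal, 4.1% were below 0.67 and 0.4% had a lower ratio. This probe set, the only AMN probe set above background on both arrays, was thus lower on paddy rice. The other had signals of 57.1 on paddy rice and 3.70 on corn, with ranks 24280 and 36130. Its nominal ratio of 15.4 has the corn signal far below background. With corn set to the background level it was 1.30-fold higher on paddy rice, a value that holds no error of a signal. Among probe sets of like signal 41.4% were above 1.5. With the median over both probe sets the AMN ratio was 2.94, so the direction for this gene depends on which probe set is read.

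LRP2, the gene of megalin, was not above background on either array with any of its 9 probe sets. On paddy rice the signals were 40.2, 7.23, 19.8, 5.22, 4.91, 2.57, 2.19, 1.82 and 0.978, from the brightest probe set to the dimmest. On corn the same probe sets had 33.1, 43.2, 4.05, 4.60, 4.71, 6.23, 4.53, 2.08 and 0.579. The ranks lay between 27075 and 37577 on paddy rice and between 26694 and 37654 on corn, and no fold is given for a gene whose signals were all at this level. The nominal ratios were 1.21, 0.167, 4.88, 1.13, 1.04, 0.413, 0.484, 0.876 and 1.69 in the same order, and 2 were above 1.5 and 3 below 0.67. In the range of these signals 24.0% to 38.5% of the neighbouring probe sets were above 1.5 and 27.8% to 40.4% were below 0.67. These 9 probe sets supplied 2 of the 9 calls above 1.5 and 3 of the 6 calls below 0.67 among all members.

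**Figure D2:**
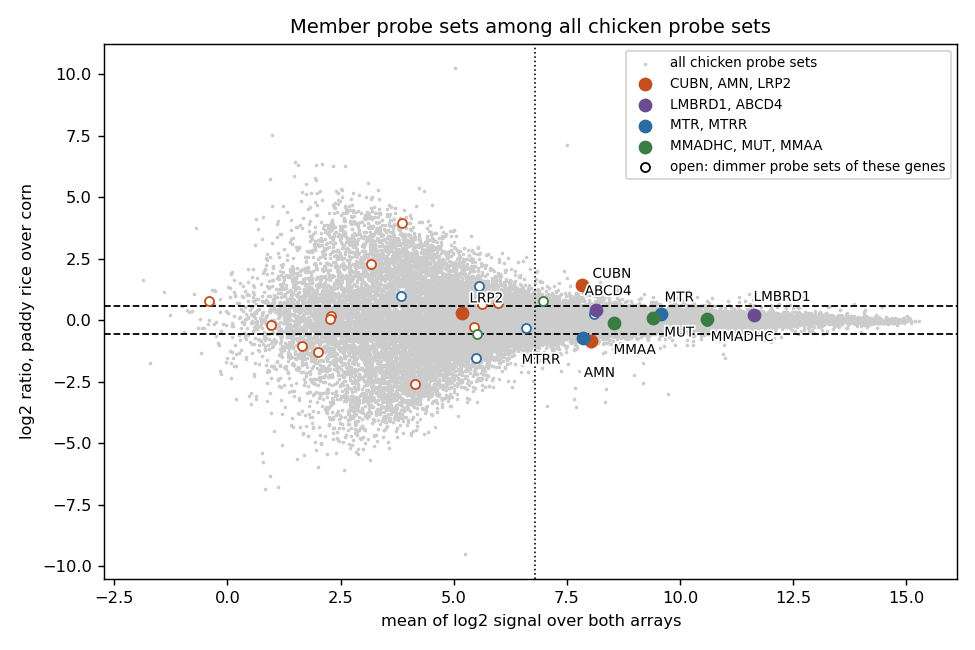
Log2 ratio of paddy rice over corn (vertical axis) against the mean log2 signal of both arrays (horizontal axis) for all 37693 chicken probe sets in grey, with the 30 member probe sets in colour, filled for the brightest of each gene and open for the others. Dashed lines are the ratios 1.5 and 0.67 and the dotted line is the median signal of 111. Grey ratios spread widely to the left of the dotted line, while CUBN at 1.43 and AMN and MTRR at -0.84 and -0.74 lie at signals where the grey points are closer together.

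Neither gene of lysosomal export was past a threshold. LMBRD1, a lysosomal membrane protein gene mutated in the human cblF disorder, had a signal of 3383 on paddy rice and 2955 on corn, a ratio of 1.14, with ranks 1870 and 2143. ABCD4, the transporter gene mutated in the cblJ disorder, had 326 on paddy rice and 242 on corn, a ratio of 1.34, with ranks 12054 and 13865. Each gene has a single probe set, marked as shared between transcripts, so there was no second reading. Of the 1000 probe sets nearest in signal, 8.6% had a higher ratio than LMBRD1 and 6.6% a higher ratio than ABCD4.

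MMADHC, which directs the vitamin to the cytosol or to the mitochondrion, had nearly equal signals on the arrays on its 2 bright probe sets. These had 1571 and 1528 on paddy rice and 1533 and 1553 on corn, with ratios of 1.02 and 0.983. Their ranks were 4086 and 4196 on paddy rice and 4216 and 4160 on corn. The third probe set had 165 on paddy rice and 96.4 on corn, a ratio of 1.71, with ranks 16264 and 20090, and was the only member probe set outside CUBN that was above 1.5 with both signals above background. Among probe sets of its signal 8.2% were above 1.5. All 3 are marked as shared between transcripts. The ratio of MMADHC was 1.02 both with the brightest probe set and with the median over the 3.

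Of the enzyme genes of the methionine branch, MTRR was below 0.67 on its brightest probe set and MTR lay between the thresholds. MTR encodes methionine synthase, which uses methylcobalamin to make methionine out of homocysteine and methylfolate. Its brightest probe set had a signal of 834 on paddy rice and 703 on corn, a ratio of 1.19, with ranks 6903 and 7857. The second, marked as shared between transcripts, had 296 on paddy rice and 252 on corn, a ratio of 1.17, with ranks 12598 and 13623. These 2 probe sets, the only ones of MTR above background on both arrays, gave nearly the same ratio.

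The 3 dimmer probe sets of MTR scattered. One had 76.5 on paddy rice and 29.0 on corn (ranks 21815 and 29410), and one had 26.1 on paddy rice and 76.5 on corn (ranks 29862 and 21918). With the dimmer signal set to background, the former was 1.73-fold higher on paddy rice and the latter 1.70-fold higher on corn. These values hold no error of a signal. Near the former 21.7% of the probe sets were above 1.5, and near the latter 23.1% were below 0.67. The last had 19.9 on paddy rice and 10.1 on corn (ranks 31142 and 33335), both below background. Dim probe sets of the same gene were therefore past a threshold in opposite directions. Their nominal ratios were 2.64, 0.341 and 1.97.

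MTRR, whose product reactivates methionine synthase by reducing its oxidised cobalamin, was lower on paddy rice on both of its probe sets. The brightest, GgaAffx.24101.1.S1_at, had a signal of 179 on paddy rice and 300.2 on corn, a ratio of 0.597, with ranks 15694 and 12603. Of the 1000 probe sets closest in signal, 3.7% were below 0.67 and 1.2% had a lower ratio. The other had 86.9 on paddy rice and 109 on corn, a ratio of 0.800, with ranks 20871 and 19134, which is between the thresholds. It is marked as shared between transcripts, and 23.9% of the 1000 probe sets closest to it in signal had a lower ratio. All 4 signals were above background, and the median over both probe sets was 0.691, on the other side of the threshold. MTRR is thus the one gene of the 10 for which more than 1 probe set was above background on both arrays and all of these had ratios under 1.

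The genes of the mitochondrial branch lay between the thresholds. MUT, named MMUT in human, encodes methylmalonyl-CoA mutase, which uses adenosylcobalamin in the breakdown of propionate. It had a signal of 699 on paddy rice and 667 on corn, a ratio of 1.05, with ranks 7802 and 8144. Its second probe set had 37.2 on paddy rice and 55.5 on corn, with ranks 27653 and 24559. The nominal ratio of 0.6705 is just above the lower threshold. The paddy rice signal was below background, and with it set to that level the fold was 1.23 higher on corn. MMAA, which encodes a GTPase that protects and reloads the mutase, had 355 on paddy rice and 387 on corn on its single probe set, a ratio of 0.916, with ranks 11581 and 11156. Among probe sets of like signal 33.2% had a higher ratio than the bright MUT probe set and 30.6% a lower ratio than MMAA.

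**Figure D3:**
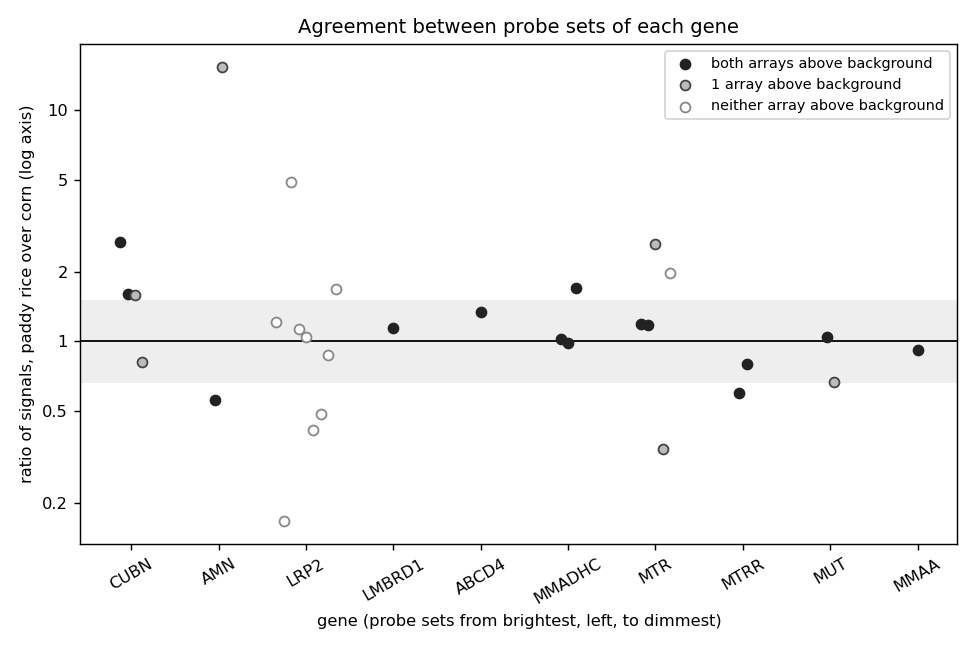
Ratio of signals, paddy rice over corn (log axis), of each of the 30 probe sets by gene, ordered within a gene from the brightest to the dimmest. Filled points were above background on both arrays, grey points on 1 array and open points on neither, and the shaded band holds ratios between 0.67 and 1.5. The filled points of CUBN and MTR are all above 1 and those of MTRR are all below 1, while the grey and open points reach from 0.167 to 15.4.

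Ratios of probe sets of the same gene often lay on both sides of 1, in this group as over all genes. Of the 7 genes with 2 or more probe sets, 6 did so, against 61.9% of the 7336 singly named genes with 2 or more probe sets. AMN, LRP2 and MTR had probe sets past both thresholds, against 10.8% of those 7336 genes. Genes with more probe sets have more chances to do so, and LRP2 has 9 and MTR has 5. With probe sets above background on both arrays alone, CUBN had ratios of 1.61 and 2.69, MTR 1.17 and 1.19, MTRR 0.597 and 0.800, and MMADHC between 0.983 and 1.71. On that basis MMADHC was the only 1 of these 4 genes with ratios on both sides of 1.

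Of 12 names listed for other carriers, receptors and enzymes of vitamin B12, 8 were measured, and GIF and MMACHC were above 1.5. GIF, the intrinsic factor gene whose product is the ligand of cubilin, had a signal of 155 on paddy rice and 42.9 on corn. The corn signal was not above background. With corn set to the background level, GIF was 3.51-fold higher on paddy rice on its single probe set, which is marked as shared between transcripts. Of the 1000 probe sets nearest in signal, 12.4% were above 1.5 and 0.3% had a higher ratio than the nominal 3.61 of GIF. In humans intrinsic factor is made by the stomach. Of 8 measured marker genes of pancreas and stomach, 4 were above 1.5 and 1 was below 0.67, with summed signals of 341 on paddy rice and 283 on corn. Near the 4 above 1.5, between 17.5% and 40.6% of the probe sets of like signal were above 1.5. Near the 1 below 0.67, 40.6% were below 0.67. None of the 8 markers reached the median signal and 4 of the 8 were not above background on either array. Their part in the GIF value was not tested.

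MMACHC, which frees cobalamin from its upper ligand before MMADHC acts, had 85.8 on paddy rice and 53.6 on corn, a ratio of 1.60, at a signal where 16.1% of the probe sets were above 1.5. The carriers and receptors of the blood side lay between the thresholds. TCN2, the transcobalamin gene, had 838 on paddy rice and 923 on corn, a ratio of 0.909. CD320, the receptor gene for transcobalamin, had 825 on paddy rice and 936 on corn, a ratio of 0.881, with 0.740 and 1.91 as the lowest and highest of its 3 probe sets. ABCC1, the efflux pump gene that exports cobalamin in mouse, had 2222 on paddy rice and 1837 on corn, a ratio of 1.21. MMAB, which makes adenosylcobalamin, had 228 on paddy rice and 227 on corn, a ratio of 1.00. ZNF143, a regulator of MMACHC in human cells, was at 0.788, and the peroxiredoxin gene PRDX1, the neighbour of MMACHC in the human genome, was at 0.949. At or above the median signal, 6 genes of this list remained, and none was past a threshold.

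Related lists showed few genes past a threshold once their signals were at or above the median. Over all 9254 singly named genes at this signal, 1.88% were above 1.5 and 1.72% were below 0.67. Of 19 genes of endocytosis and recycling of apical receptors none was past a threshold, with ratios between 0.876 and 1.13 and a median log2 ratio of -0.0043. DAB2, the adaptor gene of megalin and cubilin in mouse, had 276 on paddy rice and 271 on corn, and LRPAP1, the chaperone gene of megalin, had 3968 on paddy rice and 4128 on corn. Of 7 relatives of LRP2 in the lipoprotein receptor family none was past a threshold, with a median log2 ratio of -0.16.

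The routes around the enzymes that need vitamin B12 were measured as well. Of 10 genes of the methionine cycle and of betaine none was past a threshold (median log2 ratio -0.032), with the highest ratio of 1.49 at MAT1A, which makes S-adenosylmethionine. Of 16 genes of folate uptake and one-carbon enzymes none was past a threshold (median log2 ratio -0.054). Of 20 genes of the propionyl-CoA and methylmalonyl-CoA route, ALDH6A1 alone was above 1.5 and none was below 0.67 (median log2 ratio 0.085). ALDH6A1, an enzyme gene of valine and thymine breakdown, had 902 on paddy rice and 577 on corn, a ratio of 1.56, with 1.20 on its other probe set. MCEE, the epimerase just before the mutase, had 94.0 on paddy rice and 140.04 on corn, a ratio of 0.672. Of 10 genes of the uptake of other vitamins none was past a threshold (median log2 ratio -0.038). Below the median signal, 19 genes of the 6 lists of endocytosis, receptor relatives, methionine, folate, propionyl-CoA and other vitamins were measured, of which 4 were above 1.5 and 7 were below 0.67. Such calls were common at low signal. Of chicken probe sets with a mean signal up to 31.3, 35.8% were above 1.5 and 35.7% below 0.67. From 31.4 to 110.5 the shares were 17.8% and 19.3%. These are shares of probe sets, and the share over all genes below the median signal is not given. Only 3 of the 11 listed genes past a threshold were above background on both arrays. These 3 are named here after their values were seen. FOLR1, a folate receptor gene, had 138 on paddy rice and 61.1 on corn, a ratio of 2.25, at a signal where 12.7% of the probe sets were above 1.5. BHMT2, a homocysteine methyltransferase gene, was at 1.61 with 77.2 on paddy rice and 47.8 on corn, where 16.3% were above 1.5. BTD, the biotinidase gene, was at 0.622 with 66.3 on paddy rice and 107 on corn, where 14% were below 0.67.

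**Figure D4:**
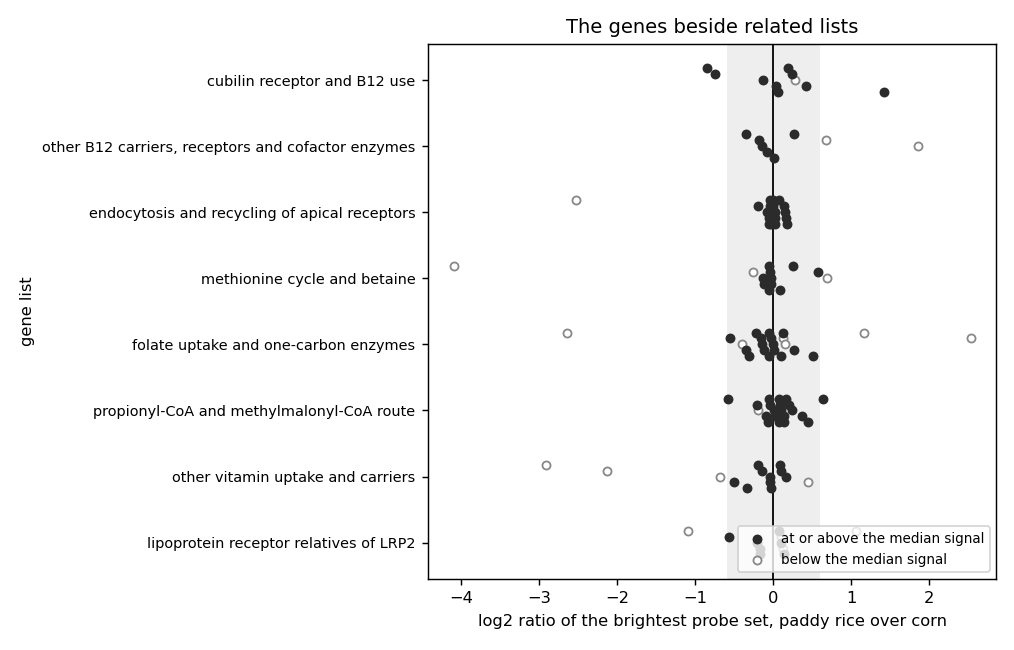
Log2 ratio of the brightest probe set, paddy rice over corn (horizontal axis), of each measured gene in 8 lists. Filled points are genes at or above the median signal, open points genes below it, and the shaded band holds ratios between 0.67 and 1.5. In the upper row CUBN lies right of the band and AMN and MTRR lie left of it, while in the other lists ALDH6A1 is the only filled point outside the band.

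Markers of the tissue were measured on the same arrays. FABP6 and SLC10A2, genes of ileal bile acid transport, had 35027 and 14136 on paddy rice and 31195 and 13832 on corn. The 13 measured enterocyte and ileum markers were all between the thresholds, with summed signals of 197604 on paddy rice and 201954 on corn, a ratio of 0.978. The sums of 7 smooth muscle markers and of 10 leukocyte markers had ratios of 0.999 and 0.978. The markers past a threshold were ACTA2 at 1.507 and CD79B at 0.667, both close to it and under the median signal. Among probe sets of like signal, 16.4% were above 1.5 for ACTA2 and 11.5% were below 0.67 for CD79B. A sum is led by its brightest genes, and most of the leukocyte sum was CD74, with 39264 on paddy rice and 40011 on corn. This list holds no immunoglobulin gene, and the study reported IGJ and IGLL1 as lower on paddy rice. Besides its place in the ileum, cubilin works with megalin in the kidney and yolk sac of mammals. Of 11 measured markers of kidney, yolk sac and liver, 6 were not above background on either array, 2 were above 1.5 and none was below 0.67. The 2 were kidney markers, but the other measured kidney markers lay between the thresholds. SLC34A1, with both signals above background, was at 1.21. SLC12A1 and UMOD, with both signals below background, had nominal ratios of 0.767 and 0.794. AQP2 had 59.6 on paddy rice and 27.1 on corn, 1.35-fold higher on paddy rice with corn set to the background level. PAX2 had 39.2 on paddy rice and 18.5 on corn, both below background. Among probe sets of like signal, 24.1% were above 1.5 for AQP2 and 31.3% for PAX2. The summed signals of these 11 markers were 7887 on paddy rice and 9128 on corn, mostly of APOB, which the intestine also expresses. The part of any of these markers in the CUBN value was not tested.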

How the data were processed

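Chicken ileum was measured on 2 GeneChip Chicken Genome Arrays, 1 per diet, each with RNA pooled from 3 birds. The authors ran MAS5 in the Affymetrix GeneChip software, which scaled the arrays, and the deposited values are these linear signal intensity values per probe set, without detection calls, so the depth and the error of a single signal are not known and the number of arrays limits the precision. Probe sets were named from the platform annotation, which can be old, and current symbols were taken by Entrez identifier out of RefSeq's GRCg7b gene table (26851 of 27166 singly named probe sets). No coordinates were used. MTR is also an older alias of OXTR, a hormone receptor gene, and its 4 probe sets were left out. In the related lists, 3 genes found by an older alias only were left out, and 158 of 193 listed genes were measured.

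Ratios were paddy rice over corn. A gene was read with its brightest probe set, by mean log2 signal over both arrays. Ratios, medians and counts were made without setting any signal to background. Where 1 array alone was above background, a fold was also given with the dimmer signal set to that level, which makes it smaller. This fold holds no error of a signal, so it is not a strict lower bound, and the level was chosen after values were known. Neighbours in signal were the 1000 chicken probe sets closest in mean log2 signal. Named were all members, all genes of the list of other vitamin B12 genes, up to 4 genes of each other list past a threshold at or above the median signal, and a few others for their role or value. The members and lists were chosen with earlier results of these data known. No test was made. The alternatives were signal filters at the median and the 75th percentile, median, quantile and loess (fraction 0.3) scaling, an added offset of 34.5, leaving out shared probe sets, thresholds of 2 and 0.5, the median over the probe sets of a gene and, added after seeing the data, a filter on background. The ratios and scalings were tested on simulated data with known folds. Python 3.11.15, numpy 2.4.6, pandas 2.3.3, statsmodels 0.14.6 and matplotlib 3.10.9 were used.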

Additional observations from a re-analysis of the deposited data

How the results depend on the processing

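The 9 probe sets above 1.5 and 6 below 0.67 became 2 and 2 at or above the median signal, 0 and 0 at or above the 75th percentile, 3 and 2 with both arrays above background, and 5 and 3 without shared probe sets, settings that leave 12, 5, 14 and 12 of the 30 probe sets. With the offset they became 4 and 4, and with thresholds of 2 and 0.5 there were 4 above 2 and 4 below 0.5. Of the probe sets past 2 or 0.5, only the brightest of CUBN had both signals above background. Shares over all chicken probe sets are not given for the offset, these thresholds or the setting without shared probe sets. By gene, 1 above 1.5 and 2 below 0.67 became 0 and 0 at the 75th percentile, where 4 of 10 genes are left, 2 and 0 with the median over probe sets, 2 above without shared probe sets, and 0 below 0.5 with the stricter thresholds. The genes added above 1.5 were AMN with the median over probe sets, where its ratio of 0.559 turned to 2.94, and LRP2 without shared probe sets, at 4.88 with both signals below background. MTRR was at 0.691 with the median over probe sets, and CUBN ran from 1.60 to 2.74 over all settings that gave it a value. The median log2 ratio of the genes ran from 0.068 to 0.16. Scaling by median, quantile or loess changed no call among the 10 genes. No paired analysis was possible because each diet has 1 array. From the dimmest 25% of chicken probe sets to the brightest 25%, 35.8%, 17.8%, 4.33% and 0.647% in each step were above 1.5, and 18 of the 30 probe sets lay below the median signal.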
